A study of Rattus norvegicus with 11 samples.

Results

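Whole lungs from chronically hypoxic rats were compared with lungs from rats in room air. All were Dahl salt-sensitive rats, a strain whose blood pressure rises on a salty diet. The comparison takes the 4 arrays labelled as hypoxia alone against the 4 arrays labelled as controls, 8 of the 11 arrays analysed here. The control rats breathed room air and received vehicle. The hypoxic rats breathed about 9.5% oxygen and received the same vehicle. Animals of both groups weighed 250 to 350 g, and lungs were taken at 3.5 weeks. The other 3 arrays come from hypoxic rats that also received SU5416, an inhibitor of vascular endothelial growth factor (VEGF) receptors. They entered the estimate of the spread and are quoted beside some genes. The pulmonary vessels were perfused before the lungs were removed, and total RNA was hybridised to Affymetrix rat arrays. The labels do not say whether each array is a separate animal, so the p-values measure the spread between these arrays.

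Cells sense oxygen through the hypoxia-inducible factors (HIF). In oxygen, the prolyl hydroxylases of the Egln family mark the HIF alpha subunits for destruction by the von Hippel-Lindau protein. When oxygen falls, the alpha subunit persists, pairs with Arnt, and binds short DNA elements with an ACGTG or GCGTG core near genes for glycolysis, iron handling and vessel growth. In the lung, sustained hypoxia constricts and remodels small pulmonary arteries, and the bone morphogenetic protein (BMP) pathway, endothelin, nitric oxide, serotonin uptake and potassium channels are among the systems known for setting pulmonary vessel tone.

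All values are log2 signals, a difference is the hypoxia mean minus the room air mean, and the background level is 5.72. Lung identity was plain in both groups. The surfactant protein Sftpc of alveolar type II cells stood at 13.38 ± 0.40 (SD, n = 4) in room air and 13.07 ± 0.13 in hypoxia. The club cell secretory protein Scgb1a1 stood at 13.47 ± 0.31 and 13.04 ± 0.19, and the alveolar type I receptor Ager at 13.01 ± 0.29 and 13.02 ± 0.12. Neither Sftpc nor Scgb1a1 nor Ager passed the threshold.

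The room air group split into pairs. For beta-actin, the 3′ minus 5′ signal gap was 2.24 on room air array 1 and 1.33 on array 2, against 0.51 and 0.60 on arrays 3 and 4 and 0.68 to 0.87 in hypoxia. A wide gap is a common sign of degraded or incompletely copied RNA. With the gap as a covariate, 4 probe sets were called with all arrays and 1 without room air arrays 1 and 2. In the latter fit the gap was lower on both room air arrays than on every hypoxia array. That fit therefore hardly separates the gap from the group. Genes of the circadian clock, the daily oscillator that runs in most tissues, divided the same arrays by a far larger step. The clock repressor Nr1d1 (Rev-erb alpha) read 11.64 and 11.41 on room air arrays 1 and 2 but 7.57 and 7.66 on arrays 3 and 4. On the hypoxia arrays 1 to 4 it read 9.47, 11.06, 10.49 and 11.15. Room air arrays 3 and 4 were thus the lowest of all 11.

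The clock output factor Dbp read 10.52, 10.99, 7.04 and 6.94 on the room air arrays and 7.68, 10.84, 10.60 and 10.26 on the hypoxia arrays. The clock gene Per3 read 9.12, 7.84, 5.41 and 4.73 in room air against 6.45, 7.28, 8.08 and 7.05 in hypoxia. Bmal1, an activator that cycles in antiphase to Nr1d1, went the opposite way, with 7.04, 7.07, 8.69 and 8.82 in room air against 8.51, 7.53, 7.17 and 8.15 in hypoxia. Hypoxia array 1 was the nearest of the hypoxia arrays to room air arrays 3 and 4 for Nr1d1, Dbp and Bmal1. The labels do not give the hour of tissue collection. Results are therefore given with all arrays. Many are also given without room air arrays 1 and 2 and without room air arrays 3 and 4. The last setting was added after the clock values had been seen.

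**Figure D1:**
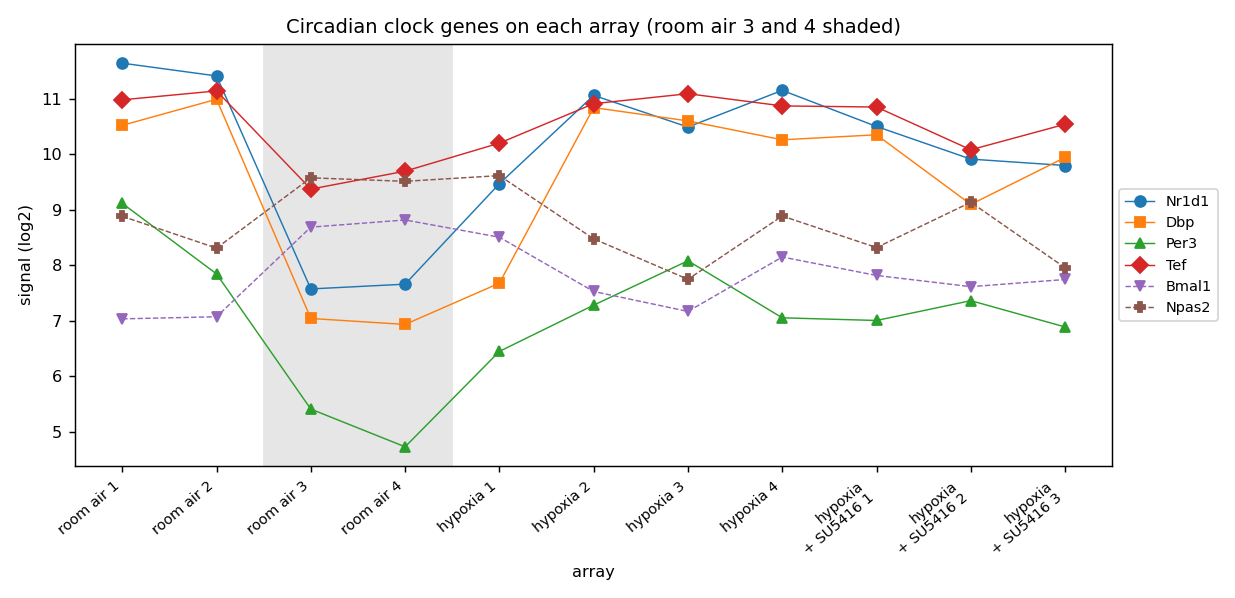
Log2 signal (y axis) of 6 circadian clock genes on each of the 11 arrays (x axis), 1 line per gene; solid lines are Nr1d1, Dbp, Per3 and Tef, dashed lines are Bmal1 and Npas2, which cycle in antiphase, and the shaded band marks room air arrays 3 and 4. Nr1d1 is 7.57 and 7.66 in the band and 9.47 or more on the other arrays.

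Across 31042 probe sets, 2 were called between hypoxia and room air with all arrays (limma, adjusted p below 0.05), which is 0.00644%. An unadjusted p below 0.05 was found for 1035 probe sets higher in hypoxia (3.33%) and for 2371 lower (7.64%). The arrays of the groups did not overlap for 637 higher (2.05%) and 1265 lower (4.08%) probe sets. The median difference over all probe sets was -0.05. Without room air arrays 1 and 2, 99 probe sets were called (0.319%), 57 higher (0.184%) and 42 lower (0.135%). This split was 85 and 33 after quantile normalization and 109 and 41 after centring on the array median. Without room air arrays 3 and 4, 9 were called (0.0290%), 5 higher and 4 lower. Only 1 probe set, of Opcml, was called under both of these settings. With 1 probe set per gene, that with the highest mean signal, 0 of 14217 genes were called by limma with all arrays (0%), while 611 were higher and 752 lower at an unadjusted p below 0.05. Differences had a standard error of 0.19 at the median, and the number of arrays limits this precision.

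Opcml, an adhesion molecule of the neuronal surface, fell. It read 7.94, 7.69, 8.09 and 8.14 in room air and 5.92, 5.79, 5.62 and 5.85 in hypoxia. The groups were far apart and the hypoxia arrays lay at background. The difference was -2.17 (SE 0.14, limma adjusted p = 0.00109), and it was -2.32 and -2.02 without either pair of room air arrays. The mean with SU5416 added to hypoxia was 8.16, just above the highest room air array. The call held under all 18 alternative settings run (limma adjusted p of 0.000365 to 0.0269). The other probe set of Opcml differed by -0.66.

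Slc6a17, a vesicle transporter of neutral amino acids, rose. It read 5.61, 5.99, 5.82 and 5.34 in room air, around background, and 6.98, 7.10, 7.15 and 6.87 in hypoxia. The groups did not overlap, and hypoxia was at least 2.47-fold above the background level (difference 1.34, SE 0.14, limma adjusted p = 0.0461). The call was lost under 13 of 18 alternative settings, with limma adjusted p of 0.0199 to 0.215 over them. It was 0.0241 without room air arrays 1 and 2 and 0.053 without arrays 3 and 4. With SU5416 its mean was 6.80, close to hypoxia alone. Its other 4 probe sets differed by -0.26 to 0.44.

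Among the largest differences with no overlap between the groups, called separated here, were those of Mgarp and Ntrk2. Mgarp encodes a mitochondrial protein that links mitochondria to transport along microtubules and is a known HIF target. It read 5.41, 4.59, 4.65 and 5.42 in room air, all below background. In hypoxia it read 8.73, 8.92, 7.51 and 6.59, highest on arrays 1 and 2 and lowest on array 4. The mean in hypoxia was at least 4.66-fold above the background level (difference 2.92, SE 0.47, limma adjusted p = 0.174 with all arrays). The difference was 2.90 without room air arrays 1 and 2 and 2.94 without arrays 3 and 4.

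Ntrk2 encodes TrkB, the receptor of brain-derived neurotrophic factor. It read 8.61, 8.56, 9.76 and 9.27 in room air and 12.51, 12.16, 11.66 and 10.17 in hypoxia. The groups did not overlap, with hypoxia array 4 again nearest to room air (difference 2.58, SE 0.47, limma adjusted p = 0.179). Another separated probe set gave 3.02 (8.37 ± 0.69 against 11.39 ± 1.20, SD, n = 4). All 5 probe sets of Ntrk2 were higher in hypoxia, with differences of 0.43 to 4.29. The mean with SU5416 was 11.40.

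Hypoxia array 4 was more often than the other hypoxia arrays the one nearest to the room air mean, but not in every list. It was nearest for 9 of the 14 glycolysis genes that were higher in hypoxia, for 10 of 16 lower B and plasma cell genes, and for 242 of the 637 higher and 513 of the 1265 lower separated probe sets. Among 25 lower T and NK cell genes array 3 was nearest for 12 and array 4 for 5, and among 18 higher cholesterol synthesis genes arrays 1 and 4 were nearest for 8 each. Leaving out array 4 gave 14 calls by limma (0.0451%), 8 higher and 6 lower, against 1, 2 and 1 without hypoxia array 1, 2 or 3. Since array 4 was singled out by its signal, the 14 are a description only, and the values of Mgarp, Ntrk2, Rab4a, Lyve1 and Pla2g2c among them rest on the fit with all arrays. Vipr1, a receptor of vasoactive intestinal peptide, shows the pattern. It read 8.96, 9.18, 9.77 and 9.30 in room air and 4.69, 5.74, 6.63 and 9.58 in hypoxia, so array 4 lay within the range of the controls (limma adjusted p = 0.336 with all arrays). Vipr1 was named after its values were seen.

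**Figure D2:**
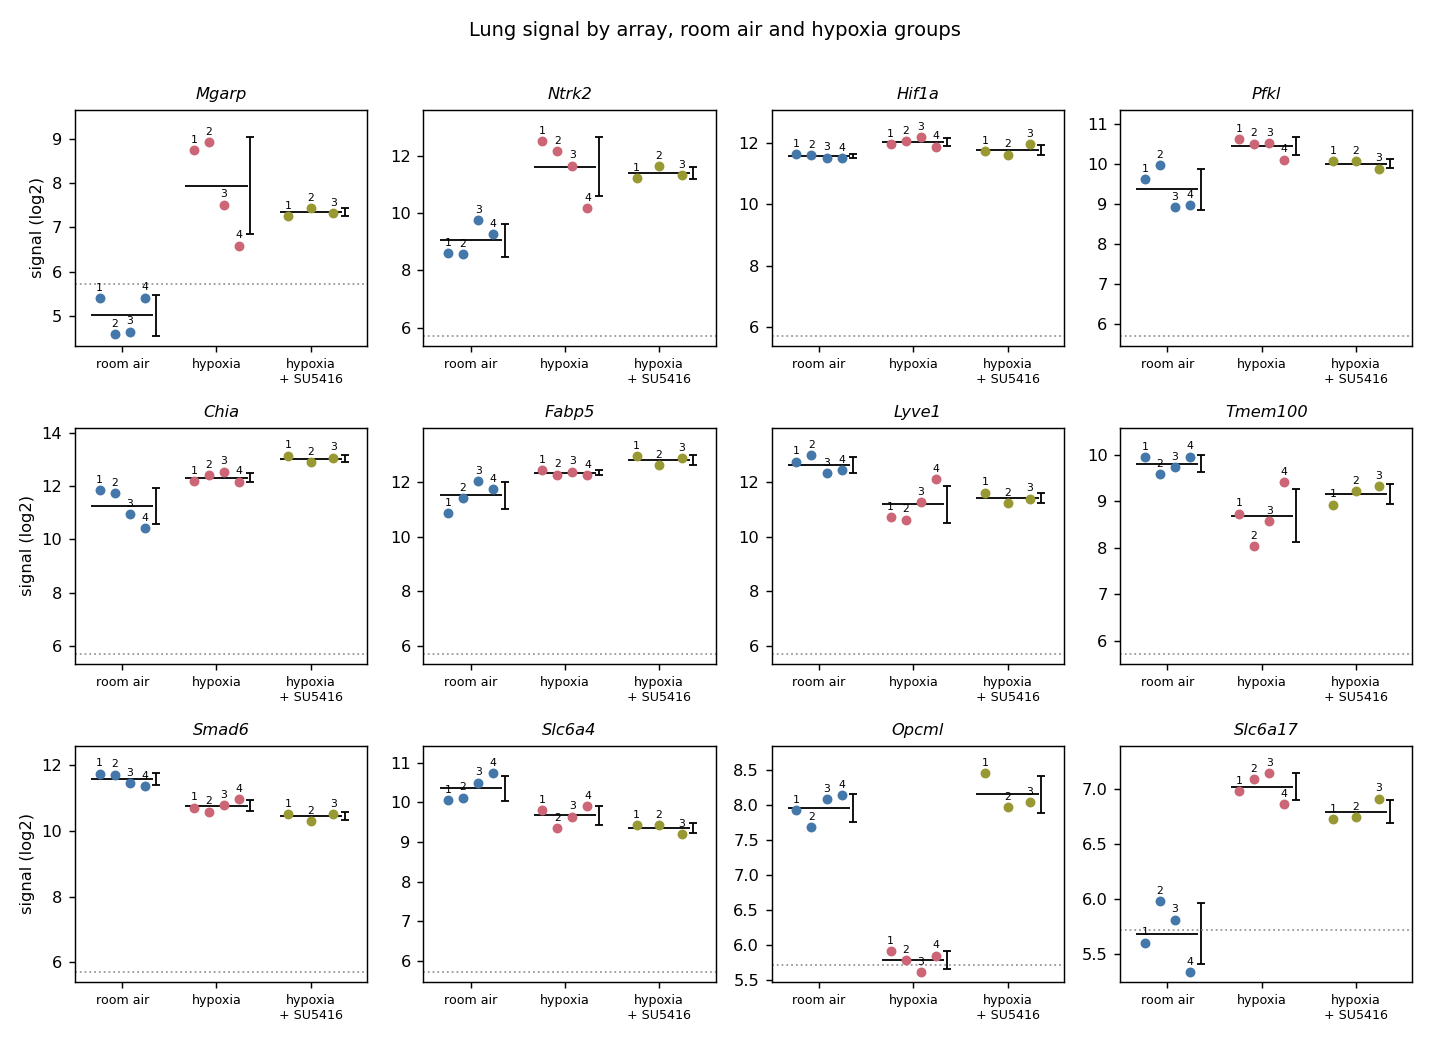
Log2 signal (y axes, each with its own range) of 12 genes on the room air, hypoxia and hypoxia plus SU5416 arrays (x axes); points are arrays with their replicate numbers, horizontal bars are group means, error bars are SD, and the dotted line is the background level of 5.72. Room air and hypoxia points do not overlap in any panel. Hypoxia array 4 lies closest to room air in every panel except that of Opcml, by a narrow margin for Chia and Fabp5.

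Among other genes whose arrays did not overlap, the larger differences were often near background. Syne4, an outer nuclear membrane protein of epithelia, stood at 4.92 ± 1.28 in room air and 7.51 ± 0.34 in hypoxia. Tdh stood at 6.32 ± 0.43 and 7.85 ± 0.80, and the pleckstrin homology gene Veph1 at 6.27 ± 1.07 and 7.98 ± 0.23. Of the 12 most negative separated genes, 10 had a hypoxia mean of 5.27 (Cog7) or less, among them Pla2g2c, Sbf2, Cyp1a1, Drd4 and Cacnb2, and the others were Opcml and Acap1 (6.11). Background lies above 5.27, so most of these differences bound a level rather than measure it. Cyp1a1, a xenobiotic-metabolising enzyme, stood at 6.77 ± 0.69 and 4.66 ± 0.80, against 12.89 with SU5416. Of all these, Opcml alone passed with all arrays.

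Genes bright in both groups give firmer values. Rab4a read 8.84, 9.30, 8.96 and 9.04 in room air and 10.23, 10.17, 9.98 and 9.65 in hypoxia, a 1.96-fold difference (limma adjusted p = 0.174). The acidic chitinase Chia, an enzyme of the airway and type II epithelium, read 11.84, 11.75, 10.96 and 10.42 against 12.18, 12.40, 12.54 and 12.17. Its room air arrays fell into the same pairs as the clock genes, and its difference of 1.08 became 1.63 without arrays 1 and 2 and 0.53 without arrays 3 and 4. The lipid chaperone Fabp5 stood at 11.51 ± 0.50 and 12.33 ± 0.09, higher still with SU5416 (12.81). Its difference of 0.82 was 0.45 without room air arrays 1 and 2 and 1.19 without arrays 3 and 4. Scn3b, a sodium channel beta subunit, was higher by 0.95 and 1.02 at its 2 probe sets. These differences were 0.558 and 0.485 without room air arrays 1 and 2, and 1.347 and 1.56 without arrays 3 and 4. At the first probe set its mean with SU5416 was 10.75, near that of room air at 10.67.

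Oxygen-sensing genes did not move as a group, but Hif1a itself was separated. It read 11.64, 11.61, 11.52 and 11.51 in room air and 11.96, 12.06, 12.19 and 11.88 in hypoxia. No hypoxia array overlapped the controls, and the difference was 0.45 (SE 0.11, 1.37-fold, limma adjusted p = 0.259), 0.51 without room air arrays 1 and 2 and 0.40 without arrays 3 and 4. Epas1, which encodes HIF-2 alpha and is abundant in lung endothelium, stood at 13.49 ± 0.25 and 13.26 ± 0.09. The hydroxylase Egln3, itself a HIF target, stood at 7.94 in room air on average and was lower by 0.17, and Egln1 differed by 0.21. Of the 10 measured genes of this list, 5 were higher, with a median of -0.04 against -0.01 over all 14217 genes.

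Glycolysis genes were the HIF-linked list with the highest median. Of 19 measured genes, 14 were higher, with a median difference of 0.25, and 9 were higher at an unadjusted p below 0.05, against 4.30% of all genes. None was called with all arrays. The arrays of the groups did not overlap for 4 higher genes, against 2.93% of all genes. The mean of the list lay between 9.72 and 9.84 on the room air arrays and between 9.91 and 10.20 on the hypoxia arrays. The ranges did not overlap, and hypoxia array 4 was the lowest of the hypoxia arrays. The median was 0.24 without room air arrays 1 and 2 and 0.13 without arrays 3 and 4.

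Pfkl, the liver-type phosphofructokinase that commits glucose to glycolysis, read 9.62, 9.98, 8.92 and 8.98 in room air and 10.63, 10.51, 10.53 and 10.11 in hypoxia. Its room air arrays were again split into the same pairs. The difference was 1.07 with all arrays (limma adjusted p = 0.249), 1.49 without arrays 1 and 2, where it rose past the threshold (limma adjusted p = 0.0233), and 0.65 without arrays 3 and 4. Pfkfb3, which makes the activator of phosphofructokinase, showed the same split, with 9.91, 10.23, 9.38 and 8.94 against 10.65, 10.55, 9.97 and 9.91. Its difference was 0.65, but 1.11 and 0.20 without either pair.

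Ldha and Aldoa differed by nearly the same amount whichever pair of room air arrays was left out. Ldha, which makes lactate, read 11.63, 12.02, 11.84 and 11.78 against 12.28, 12.19, 12.15 and 12.11, a difference of 0.37 that was 0.37 and 0.36 without either pair. Aldoa, the main aldolase, read 12.19, 12.57, 12.36 and 12.36 against 12.80, 12.71, 12.64 and 12.67, a difference of 0.34 that was 0.35 and 0.33. Neither gene overlapped between groups. Aldoc, another aldolase, read 8.37, 8.08, 7.49 and 4.78 on hypoxia arrays 1 to 4, against 4.75 to 5.44 in room air, all below background. Its mean in hypoxia was at least 2.75-fold above the background level, and this rests on 3 of the 4 hypoxia arrays. Pfkfb4 lay the other way, lower by 0.25 with no overlap.

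Among other HIF targets, 18 of 27 genes were higher, with a median of 0.08. At an unadjusted p below 0.05, 4 were higher, against 4.30% of all genes. Bnip3, which marks mitochondria for removal, read 10.08, 10.64, 10.28 and 10.25 in room air and 11.43, 11.46, 10.84 and 10.54 in hypoxia. Array 4 overlapped the controls (difference 0.76, SE 0.22, limma adjusted p = 0.309). Cox4i2, the lung and hypoxia isoform of a cytochrome oxidase subunit, was separated, at 9.26, 9.77, 9.45 and 9.60 against 10.13, 9.96, 9.98 and 9.81. Ddit4, an inhibitor of mTOR complex 1 and also a glucocorticoid target, read 11.50, 11.48, 10.60 and 10.70 against 11.91, 12.09, 11.66 and 11.49. It differed by 1.14 without room air arrays 1 and 2 and by 0.30 without arrays 3 and 4.

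Several textbook targets were not higher with all arrays at the probe set of highest mean signal. Vegfa stood at 12.33 ± 0.30 and 12.17 ± 0.12. Its difference was 0.06 without room air arrays 1 and 2 and -0.38 without arrays 3 and 4. Its other probe set gave 0.13 with all arrays. The vasodilator peptide Adm differed by -0.72, with 6.30, 6.73, 8.30 and 7.61 on the room air arrays and 6.91, 6.33, 6.01 and 6.81 in hypoxia. The carbonic anhydrase Car9 differed by -0.27. None of these differences passed the threshold.

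The promoters of 4 genes are shown because the HIF core letters can be read in them beside the values above. They are the 250 bases before the annotated start, 5′ to 3′ on the strand of the gene, from RefSeq on GRCr8. Capitals mark the core ACGTG or GCGTG read on either strand, so a core on the other strand appears as its reverse complement. The palindromic E-box that clock and Myc-type factors bind holds the first core on both strands and counts once on each. The windows are Mgarp on the minus strand at chr2:137590295-137590544, Pfkl on the plus strand at chr20:10663715-10663964, Ldha on the plus strand at chr1:106507842-106508091 and Bnip3 on the minus strand at chr1:203154963-203155212.
Mgarp: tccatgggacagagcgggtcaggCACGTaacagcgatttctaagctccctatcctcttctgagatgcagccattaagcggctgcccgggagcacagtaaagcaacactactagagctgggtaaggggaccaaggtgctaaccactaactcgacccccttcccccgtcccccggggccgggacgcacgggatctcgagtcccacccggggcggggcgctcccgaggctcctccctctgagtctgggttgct
Pfkl: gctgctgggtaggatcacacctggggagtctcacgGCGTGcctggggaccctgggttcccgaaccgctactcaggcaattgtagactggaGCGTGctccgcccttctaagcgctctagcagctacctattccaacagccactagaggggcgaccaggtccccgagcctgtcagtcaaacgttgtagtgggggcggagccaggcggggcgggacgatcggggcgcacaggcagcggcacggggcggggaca
Ldha: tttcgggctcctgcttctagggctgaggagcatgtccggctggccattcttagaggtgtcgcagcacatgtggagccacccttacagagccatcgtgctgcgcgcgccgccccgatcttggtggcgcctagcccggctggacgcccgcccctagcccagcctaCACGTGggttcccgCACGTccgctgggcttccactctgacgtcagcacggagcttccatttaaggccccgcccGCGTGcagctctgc
Bnip3: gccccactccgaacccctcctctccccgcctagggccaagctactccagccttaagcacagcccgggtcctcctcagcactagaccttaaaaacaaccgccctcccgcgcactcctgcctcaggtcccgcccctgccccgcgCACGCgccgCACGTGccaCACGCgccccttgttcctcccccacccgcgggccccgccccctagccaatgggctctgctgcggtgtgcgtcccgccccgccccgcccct
Mgarp held 1 core and Pfkl 2, and Ldha and Bnip3 held 4 each, of which 2 in each gene came from 1 E-box. Of 33469 promoter windows of this length, 36.7% held at least 1 core and 5.6% an E-box. Of the 21 windows of measured glycolysis genes, 13 held a core (61.9%), and of the 24 windows of other HIF targets 18 did. The list of cholesterol synthesis genes had 10 of 16 (62.5%) and that of T and NK cells 6 of 22 (27.3%). A match to these letters is a description of the sequence and no evidence of binding, and the base composition of the windows was not compared.

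On the vascular side, 0 of 35 BMP and transforming growth factor beta genes were separated and higher in hypoxia (2.93% of all genes were) and 2 were separated and lower (3.00% of all genes), shares near those of all genes. Smad6, an inhibitory Smad that BMP signalling induces, read 11.73, 11.70, 11.45 and 11.36 in room air and 10.70, 10.58, 10.78 and 10.96 in hypoxia. The groups did not overlap. The difference was -0.81 (SE 0.13, 1.75-fold, limma adjusted p = 0.174), and the mean with SU5416 was 10.44. Its other 3 probe sets differed by -0.57 to 0.58, so they disagree in direction.

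Tmem100, an endothelial membrane protein downstream of BMP9 and ALK1, read 9.95, 9.58, 9.73 and 9.96 against 8.73, 8.04, 8.57 and 9.41. The difference was -1.12 and its other probe set gave -0.48. Bmp6, a BMP ligand, was separated at 2 of its 4 probe sets, with differences of -0.32 and -0.40. Bmp2 lay the other way, at 9.23, 8.75, 9.27 and 10.07 against 11.15, 10.66, 10.39 and 9.51, higher on hypoxia arrays 1 to 3 and within the control range on array 4. Grem1, a BMP antagonist, read 6.10, 6.58, 6.03 and 5.68 against 7.19, 7.29, 7.41 and 6.03, with array 4 again in the control range. Of the 35 genes of this pathway list, 15 were higher, with a median of -0.03. Bmpr2, the receptor most often mutated in heritable pulmonary hypertension, differed by -0.20.

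Lyve1 was bright in both groups. It read 12.75, 12.99, 12.33 and 12.44 in room air and 10.73, 10.63, 11.27 and 12.11 in hypoxia. The difference was -1.44 (SE 0.30, 2.72-fold, limma adjusted p = 0.249), -1.20 and -1.69 without either pair of room air arrays, and its other probe set gave -1.53. In whole tissue, fewer cells of a type and less RNA per cell cannot be told apart. Among 23 endothelial genes, 8 were higher, with a median of -0.20, and 4 were lower at an unadjusted p below 0.05 against 5.29% of all genes. Kdr, the main VEGF receptor, read 12.61, 12.64, 12.58 and 12.48 against 12.38, 12.27, 12.27 and 12.41, a separated difference of -0.25. The fenestral diaphragm protein Plvap differed by -0.54 and the clotting factor Vwf by -0.42, both with overlap. Without room air arrays 1 and 2 the list median was -0.03, and without arrays 3 and 4 it was -0.11.

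Serotonin and natriuretic peptide genes included lower values too. The serotonin transporter Slc6a4 read 10.06, 10.12, 10.50 and 10.74 in room air and 9.80, 9.34, 9.64 and 9.91 in hypoxia (difference -0.68, SE 0.18, limma adjusted p = 0.288). Its difference was -0.95 without room air arrays 1 and 2 and -0.42 without arrays 3 and 4. The serotonin receptor Htr2b read 7.47, 7.29, 7.11 and 6.97 against 5.93, 6.82, 6.57 and 6.92, with differences of -0.48 and -0.82 under the same settings. Both were separated. The natriuretic peptide clearance receptor Npr3 read 7.43, 7.78, 7.95 and 8.58 against 4.89, 4.45, 7.26 and 7.82, lowest on hypoxia arrays 1 and 2, and array 4 lay within the control range. Edn1, which encodes the vasoconstrictor endothelin-1, differed by 0.30 and the endothelial nitric oxide synthase Nos3 by 0.24, and neither passed. Among 29 vasoactive genes 13 were higher, with a median of -0.03. Of the 29, 0 were separated and higher and 3 separated and lower, against 2.93% and 3.00% of all genes. At an unadjusted p below 0.05, 2 were higher and 6 lower, against 4.30% and 5.29% of all genes.

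Smooth muscle and matrix lists had small medians that moved with the room air arrays used. Of 19 contractile smooth muscle genes 13 were higher, with a median of 0.11 (0.16 and -0.05 without either room air pair). Acta2, smooth muscle actin, stood at 11.65 ± 0.30 and 11.97 ± 0.20. Of 17 collagens 13 were higher (median 0.11). Without room air arrays 1 and 2 it was 9 of 17 (median 0.04), and without arrays 3 and 4 it was 17 of 17 (median 0.28). Of 27 matrix glycoprotein and elastic fibre genes 19 were higher (median 0.12), with medians of 0.06 and 0.28 under the same settings. Of 24 potassium channels 10 were higher (median -0.08). The oxygen-sensitive channels Kcna5 and Kcnk3 differed by 0.30 and 0.20, and neither passed. These differences were 0.56 and 0.38 without room air arrays 1 and 2, and 0.05 and 0.02 without arrays 3 and 4. The other 2 probe sets of Kcnk3 disagreed in direction, at -0.68 and 1.09.

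Lymphocyte gene lists had negative medians under each setting of the room air arrays. Of 29 T and NK cell genes 4 were higher, with a median of -0.33. At an unadjusted p below 0.05, 7 were lower, against 5.29% of all genes. The median was -0.42 without room air arrays 1 and 2 and -0.17 without arrays 3 and 4. The costimulatory receptor Cd2 read 8.35, 7.86, 7.43 and 7.34 in room air and 6.14, 6.92, 7.01 and 6.66 in hypoxia, and the NK receptor Klrd1 stood at 9.15 ± 0.16 against 8.55 ± 0.27 (SD, n = 4). Both were separated, as is the case for 3.00% of all genes in this direction. The T cell costimulator Icos was separated at 2 of its 3 probe sets (-0.53 and -0.69). The list mean per array was 8.69, 8.46, 8.71 and 8.81 in room air, and the highest hypoxia array, at 8.51, overlapped that range.

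Of 18 B and plasma cell genes 2 were higher, with a median of -0.39, which was -0.42 without room air arrays 1 and 2 and -0.22 without arrays 3 and 4. Ms4a1 (CD20) read 8.47, 8.62, 8.86 and 8.69 against 7.96, 8.10, 7.87 and 8.20, with no overlap (difference -0.62, SE 0.12, limma adjusted p = 0.212). The adaptor Blnk and the kinase Blk were separated as well, by -0.60 and -0.53. Over all genes, 3.00% were separated in this direction. Bank1, a scaffold of the B cell receptor, read 9.72, 9.49, 8.96 and 9.26 against 7.96, 8.06, 8.26 and 8.99, with array 4 in the control range. The list mean lay between 8.56 and 8.82 in room air and between 8.18 and 8.46 in hypoxia. Of 13 neutrophil genes 3 were higher, with a median of -0.35, but this was -0.02 without room air arrays 3 and 4. No member of these lists was called.

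**Figure D3:**
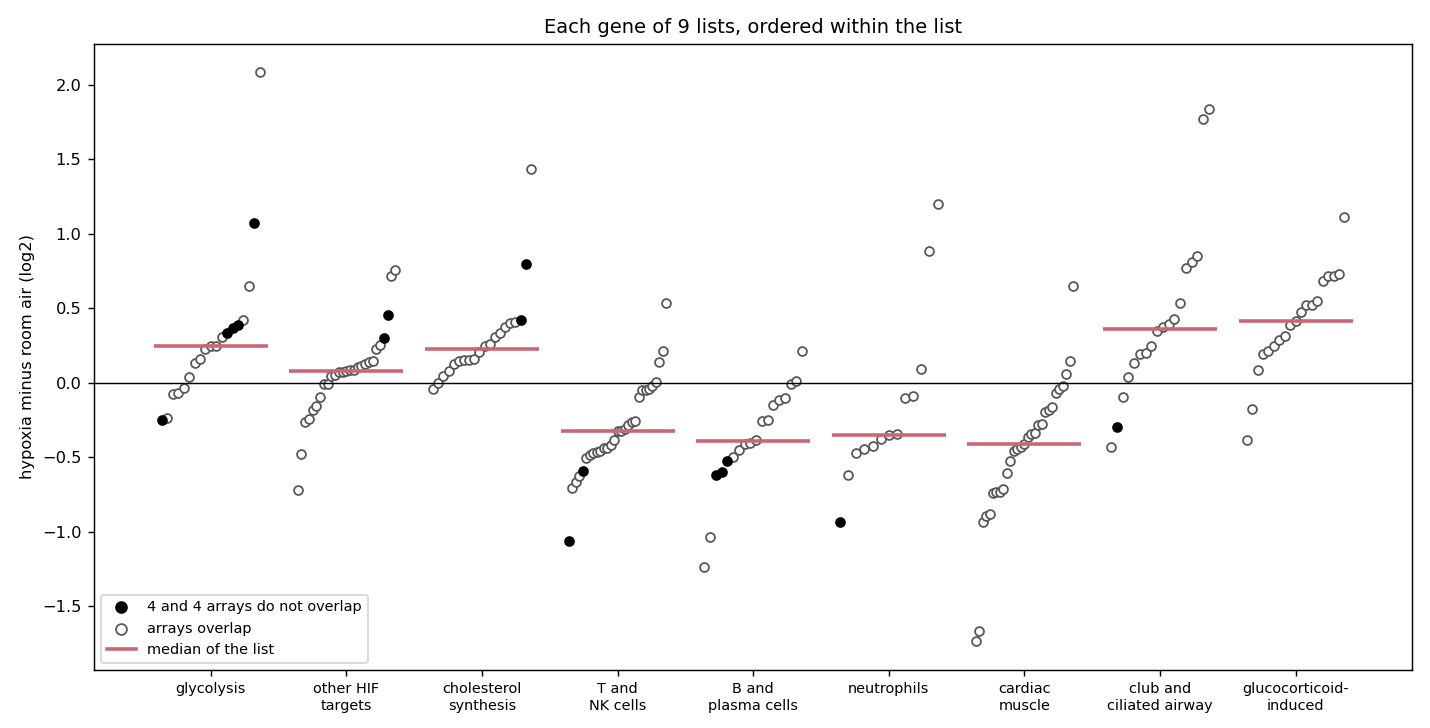
Difference of hypoxia minus room air (y axis, log2) for each measured gene of 9 lists (x axis), ordered within its list; filled points are genes whose 4 and 4 arrays do not overlap, open points are genes whose arrays overlap, and the red bars are list medians. Glycolysis has a median of 0.25, and the T and NK cell, B and plasma cell and cardiac muscle lists have medians of -0.33, -0.39 and -0.41.

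Cardiac muscle genes, which the rat lung carries in the sleeves of its pulmonary veins, had the lowest median of the 37 lists (-0.41, 3 of 29 higher) with 0 genes separated and 0 at an unadjusted p below 0.05. Their mean read 6.93, 8.24, 9.37 and 6.81 on the room air arrays and 7.72, 7.79, 6.78 and 7.21 on the hypoxia arrays. Room air array 3 was the highest. The troponin Tnnc1 read 7.16, 8.44, 10.37 and 7.22 against 8.10, 7.94, 6.95 and 7.24. The part of this tissue in other results was not tested.

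Airway genes differed between the room air arrays in another way. Of 18 club and ciliated cell genes 15 were higher in hypoxia (median 0.36, 0.52 and 0.09 without either room air pair). Of the 18, 0 were separated and higher and 1 separated and lower, against 2.93% and 3.00% of all genes. At an unadjusted p below 0.05, 1 was higher and 1 lower, against 4.30% and 5.29% of all genes. The secretoglobin Scgb3a1 read 7.52, 12.33, 12.33 and 9.15 in room air and 12.25, 12.20, 12.23 and 11.99 in hypoxia. Bpifb1, an antimicrobial protein of the larger airways, read 5.21, 8.34, 8.90 and 5.02 against 8.51, 8.66, 9.44 and 7.95. Room air arrays 1 and 4 were low for both genes and arrays 2 and 3 were at the level of hypoxia. Nerve and Schwann cell genes had a median of -0.29, with 2 of 16 higher.

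Lipid synthesis lists had positive medians. Of 20 cholesterol synthesis genes 18 were higher, with a median of 0.23. At an unadjusted p below 0.05, 3 were higher, against 4.30% of all genes. Sqle, squalene epoxidase, read 7.85, 8.23, 8.98 and 8.99 in room air and 9.27, 9.24, 9.47 and 9.24 in hypoxia. Its difference was 0.79, but 0.32 without room air arrays 1 and 2 and 1.27 without arrays 3 and 4. The list median moved likewise, to 0.06 and 0.35. Of 14 fatty acid synthesis genes 12 were higher (median 0.18, 0.15 and 0.22).

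Glucocorticoid-induced genes had the highest median of the lists, 0.41, with 17 of 19 higher. At an unadjusted p below 0.05, 5 were higher, against 4.30% of all genes. The median was 0.63 without room air arrays 1 and 2 and 0.03 without arrays 3 and 4. Nfkbia, the inhibitor of NF-kappa-B, read 12.22, 12.16, 10.98 and 11.13 in room air and 12.31, 12.11, 12.06 and 11.90 in hypoxia. Klf9, which responds to glucocorticoids and to the clock, read 12.65, 12.52, 11.34 and 11.58 against 12.47, 12.49, 12.44 and 12.25. Both rose past the threshold without room air arrays 1 and 2 (limma adjusted p = 0.0351 for each), and both had the opposite sign without arrays 3 and 4 (-0.10 for Nfkbia and -0.17 for Klf9). Sgk1, a kinase induced by the same hormones, split the pairs the other way, with room air arrays 1 and 2 below arrays 3 and 4. It read 11.14, 11.41, 11.75 and 11.59 against 12.37, 12.22, 12.03 and 11.45. The 20 clock genes had a median of 0.21 (16 higher), 0.33 and -0.06.

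**Figure D4:**
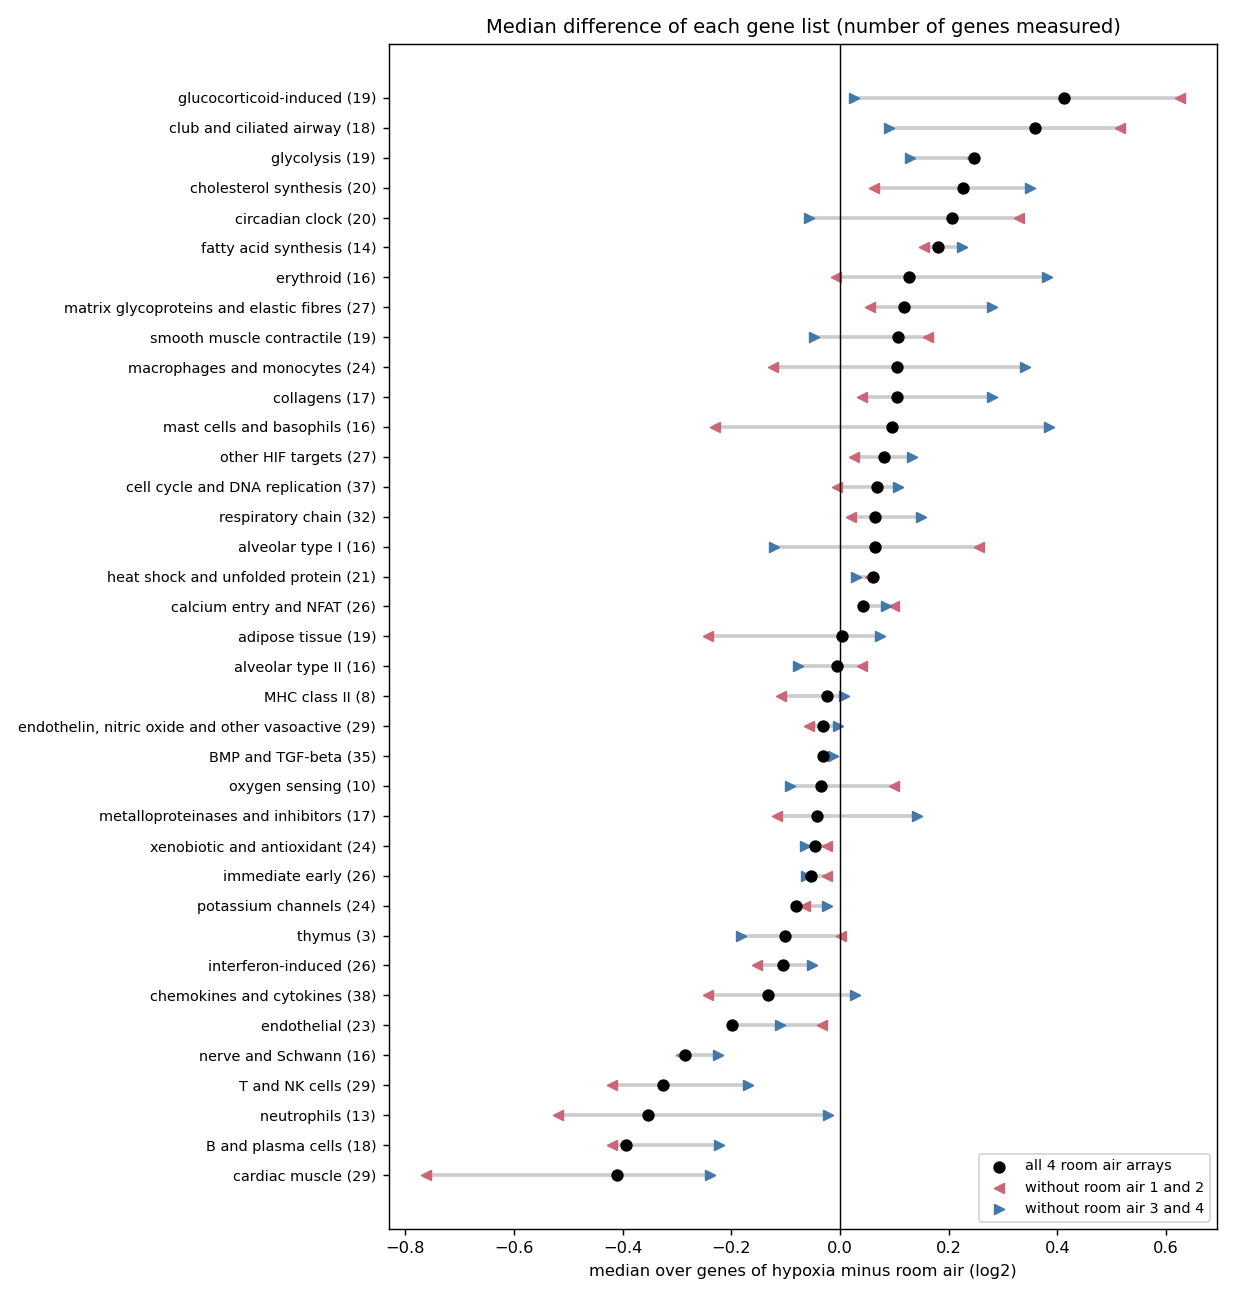
Median difference of hypoxia minus room air (x axis, log2) for each of 37 gene lists (y axis, number of measured genes in brackets); black points use all 4 room air arrays, red left-pointing triangles leave out room air arrays 1 and 2, and blue right-pointing triangles leave out arrays 3 and 4. Glucocorticoid-induced genes move from 0.63 to 0.03 between these settings, whereas B and plasma cell genes stay below 0 at -0.42 and -0.22.

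The 99 probe sets called without room air arrays 1 and 2 largely separate arrays 3 and 4 from all the others. For 82 of them room air array 1 lay nearer to the hypoxia mean than to the mean of room air arrays 3 and 4, and for 86 room air array 2 did. Over the 57 called higher, room air arrays 1 and 2 lay at a median of -0.12 and -0.02 from the hypoxia mean, against -1.13 and -1.33 for arrays 3 and 4. Over the 42 called lower, the medians were 0.05 and -0.02 against 1.48 and 1.48. The SU5416 means lay on the hypoxia side of arrays 3 and 4 for 57 of the 57 and for 41 of the 42. The 99 were called by the distance of arrays 3 and 4 from hypoxia, so these counts are a description only. Without arrays 3 and 4, 55 of the 99 kept the sign of their difference, and 22 did so with an unadjusted p below 0.05. With all arrays, 22 of the 99 had groups that did not overlap, against 2.05% of all probe sets higher and 4.08% lower. Both counts of 22 reuse the hypoxia arrays by which the 99 were called, so they too are a description only.

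Named genes among them follow this count. Scnn1a, a subunit of the epithelial sodium channel, read 8.17, 8.67, 5.94 and 5.88 at the called probe set in room air and 8.80, 8.89, 9.39 and 9.36 in hypoxia. It rose without arrays 1 and 2 by 3.20 (limma adjusted p = 0.0140), and its brighter probe set differed by 0.56 with all arrays. Epn1, an endocytic adaptor, read 9.01, 9.32, 7.62 and 7.64 against 9.53, 9.25, 9.55 and 9.28. Rtbdn read 8.70, 8.22, 5.57 and 6.08 against 8.02, 7.97, 8.13 and 8.12, so that its difference of 2.24 without arrays 1 and 2 became -0.40 without arrays 3 and 4. Rprml and Ttc38 turned in the same way, to -0.32 each. Among genes called lower, the mean of room air arrays 3 and 4 was at least 2.5-fold above the background level for Lyst, 6.22-fold for Pkia, 4.73-fold for Rab8b and 1.67-fold for Pln. The mean of room air arrays 1 and 2 and the hypoxia mean were both below background for these genes, so they have no direction without arrays 3 and 4. Syne4 and Veph1 kept their direction without arrays 3 and 4, at 1.91 and 1.58. The mean of Syne4 on room air arrays 1 and 2 was below background, but these arrays read 4.5 and 6.7. Veph1 read 5.13 and 7.68 on the same arrays.

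**Figure D5:**
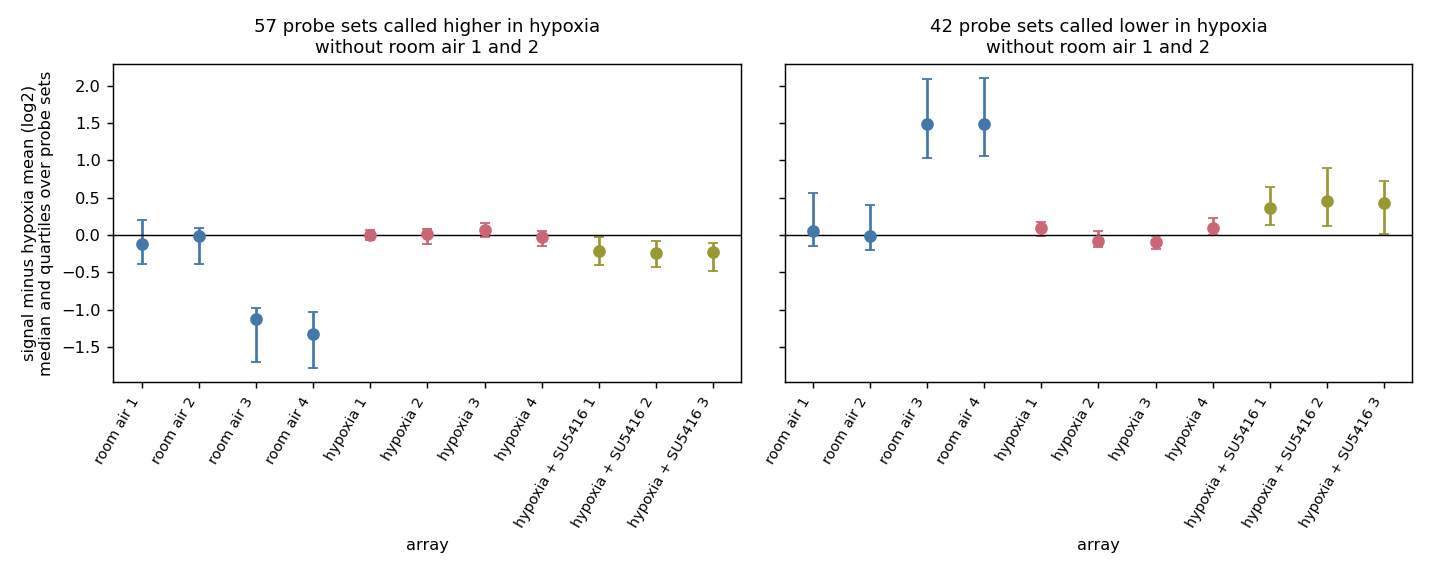
Signal minus the hypoxia mean (y axis, log2) on each array (x axis) for the 57 probe sets called higher (left) and the 42 called lower (right) in hypoxia when room air arrays 1 and 2 are left out; points are medians over probe sets and bars are quartiles. Room air arrays 3 and 4 lie at -1.13 and -1.33 on the left and at 1.48 on the right, and room air arrays 1 and 2 lie near the hypoxia arrays in both panels.

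A further description uses genes with several probe sets. Of 4525 genes with at least 2 probe sets, 9 had 2 or more that were separated and higher in hypoxia (0.199%), and 21 had 2 or more separated and lower (0.464%). The higher ones included Ntrk2, Scn3b, the VEGF-family ligand Pgf (6.91 ± 0.45 against 7.69 ± 0.27 at its brighter probe set, SD, n = 4), the epithelial polarity gene Crb3 and Prrg3. The lower ones included Tfpi, the endothelial inhibitor of tissue factor (10.91 ± 0.08 against 10.48 ± 0.09), the leptin receptor Lepr, Bmp6, and the leukocyte genes Icos, Il10ra, Pik3cd and Cd244l1. None of these was called with all arrays.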

How the data were processed

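Lung RNA was hybridised to Affymetrix rat expression arrays. The deposited values are log2 signals that the authors made with RMA, per the submitters' processing notes. On each array the trimmed mean of the linear signals was 500, so how they were summarised remains uncertain. Of 31099 probe sets, 57 controls were left out. Background, 5.72, is the 95th percentile of 27 bacterial control probe sets. Genes were named from the platform annotation: 20826 probe sets had 1 symbol, 436 several and 9780 none.

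All 11 arrays entered 1 linear model in limma 3.58.1 (R 4.3.3), and p-values were adjusted by Benjamini-Hochberg over 31042 probe sets. A probe set was called below an adjusted p of 0.05. The scripts were tested on simulated data. The SAM analysis named in the series text was not recomputed.

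The genes named were taken from several sets, and not every member of a set is named. A set holds the 12 largest differences each way with 1 symbol, groups that do not overlap and the higher mean above background. Another holds the 8 largest calls each way without room air arrays 1 and 2. All calls with all arrays were also taken. From each of 37 lists came up to 3 members of smallest p, plus a few set by name. Genes bright in both groups (means of at least 8), genes with several separated probe sets, Vipr1 and further list members were chosen after their values were seen. The members and lists were chosen with earlier results of these data known. Alternatives changed the normalization, filter, arrays, covariates and model. Leaving out room air arrays 3 and 4 was added after seeing the data.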

Additional observations from a re-analysis of the deposited data

Results flagged for a closer look

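Among 348 groups of 4 arrays of the named probe sets, 21 held 1 array whose gap to the nearest of the others exceeded Dixon's 95% critical share of the group's range. Chance gives about 1 in 20. Hypoxia array 4 held 5 of these values and room air array 1 held 4. All values are log2 signals.

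On hypoxia array 4, Pla2g2c read 5.68 against 2.88 to 3.27 on the other hypoxia arrays, and Cd1d1, a lipid-antigen presenting molecule, read 8.53 against 7.89 to 7.98. Il33, an epithelial alarmin, read 12.05 there against 11.92 to 11.94. Cited2, which competes with HIF for its coactivator, read 11.36 against 11.77 to 11.80, and Nnat read 11.13 against 11.41 to 11.46. On hypoxia array 1, the cell cycle inhibitor Cdkn1a read 8.91 against 6.57 to 6.66, Pkia read 5.99 against 5.36 to 5.43, and the brighter Scnn1a probe set read 11.24 against 11.51 to 11.55. On hypoxia array 3, Cnksr2 read 2.88 against 4.27 to 4.42, the type I and II cell tight junction gene Cldn18 read 12.76 against 12.90 to 12.92, and Sqle read 9.47 against 9.24 to 9.27. On hypoxia array 2, Rab8b read 4.73 against 5.59 to 5.77.

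On room air array 1, Cd1d1 read 7.41 against 8.04 to 8.14 on the other room air arrays, Creld2 read 9.53 against 9.95 to 10.01, Fbln2 read 8.98 against 8.27 to 8.33, and Satb1 read 9.72 against 9.41 to 9.45. On room air array 2, Cdkn1a read 3.24 against 6.00 to 6.53, the clock repressor Bhlhe41 read 10.06 against 9.49 to 9.58, and Gad1 read 6.16 against 3.70 to 4.07. Msx2 read 4.94 on room air array 3 against 3.83 to 3.95, and the T cell factor Gata3 read 9.22 on array 4 against 8.52 to 8.62. Cdkn1a and Cd1d1 thus had an array apart in both groups. For Cdkn1a this was the dimmer probe set, and its reading of 3.24 lay below background. The brighter Cdkn1a probe set read 10.10, 9.99, 10.14 and 10.10 in room air and was flagged in neither group.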

How the results depend on the processing

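The 2 calls with all arrays became 9 without room air arrays 3 and 4 and 99 without room air arrays 1 and 2. They became 1 each under quantile normalization, centring on the array median, a fit of the room air and hypoxia arrays only, and eBayes with trend and robust, and 4 with the beta-actin gap as a covariate. Opcml was called under all 18 settings run for it, and Slc6a17 under 5 of 18. Leaving out 1 array gave 1 to 14 calls, with 14 without hypoxia array 4 and 4 without room air array 1. The 99 calls became 150 after centring, 118 under quantile normalization, 211 among probe sets above background only, 16 without the SU5416 arrays, 624 with trend and robust, 187 with array quality weights, and 1 with the actin gap as a covariate. The fit with that covariate hardly separates the gap from the group once room air arrays 1 and 2 are left out. Leaving out 1 more array gave 2 to 102, with 2 without hypoxia array 3, 4 without hypoxia array 2, 16 without room air array 4 and 21 without hypoxia array 1. Deviations of same-numbered arrays from their group means correlated at -0.179, 0.133, -0.155 and 0.129. These weak values gave no sign that the numbers pair the arrays, but they cannot exclude it. With the replicate block, 1 probe set was called with all arrays and 0 without room air arrays 1 and 2. Differences that changed direction without room air arrays 3 and 4 were Ttc38 -0.318, Rtbdn -0.396, Rprml -0.319, Lyst 0.273, Pkia 0.192, Pln 0.497, Rab8b 0.588, RT1-DMa 0.044, Cldn18 -0.038, Per1 -0.212, Dbp -0.911 and Bmal1 0.784; for Lyst, Pkia, Pln and Rab8b both means compared were below background, so the sign there has no meaning. Without room air arrays 1 and 2, Arpp21 became 0.043 and Vegfa 0.057. Bmal1 was 0.048 under quantile normalization and 0.025 after centring, and ranged from -0.354 to 0.24 with 1 array left out. Cd1d1 ranged from -0.015 to 0.226 with 1 array left out. Of 174 named probe sets, 15 changed direction under some setting. List medians changed sign for 8 lists without room air arrays 1 and 2, 6 without arrays 3 and 4, 9 after centring and 4 under quantile normalization. The cause of these changes was not tested. Signals near background limit what most of the large falls measure.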
